A study of Mus musculus with 4 samples.

Results

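The genes described here code for the subunits of the proteasome and for its activators. Rows of the deposited matrix were taken by gene symbol from a list of 41 names (Psma1 to Psma8, Psmb1 to Psmb10, Psmc1 to Psmc6, Psmd1 to Psmd14 without Psmd10, and Psme1 to Psme4), and all 41 were found among its 28692 genes. The choice used no measured value. The question taken up is how these genes differ between the cell types of the adult mouse testis, with Psma8 set against Psma7 and the activators set against each other. The study itself, from its title, concerned PHF7, a chromatin protein of germ cells in males, and the replacement of histones by protamines in spermatids. Cells from the testes of C57BL/6 mice (postnatal day 63) went through single-cell RNA sequencing in droplets, where each captured 3' end of a polyadenylated transcript counts as a unique molecular identifier (UMI). Of the 4 samples, 2 carried the floxed allele alone (Phf7 f/f), and 2 carried it together with Stra8-Cre (Stra8-Cre:Phf7 f/f, called Phf7 tKO). The Stra8-Cre transgene drives recombination in male germ cells, so somatic cells of both genotypes keep the floxed allele. All samples thus had the Phf7 f/f background. Nothing in the labels says if samples of one genotype were separate animals.

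The cells of the 4 libraries were deposited in a single matrix, in which they differ only by a barcode suffix from 1 to 4. No label ties a suffix to a sample or genotype, so the matrix was read as 1 pooled sample, genotypes were not compared, and no p-value is given. Suffixes held 6958 to 7941 kept cells and 44447735 to 50353091 UMI. Of 31772 distinct barcode sequences, 497 (1.56%) occurred in more than 1 library. Levels are given as CPM, the UMI of a gene summed over the cells of a class per 1000000 UMI of that class. Intervals are exact at 95% and cover counting error only, and the values of suffixes 1 to 4 are given in that order. Gene positions are on GRCm38 (mm10), from GENCODE M21.

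The proteasome degrades proteins that carry ubiquitin chains. Its barrel-shaped core particle has outer rings of alpha subunits, which gate the pore, and inner rings of beta subunits, of which Psmb5, Psmb6 and Psmb7 code for the proteolytic ones. In the immunoproteasome these are replaced by the products of Psmb8, Psmb9 and Psmb10, which are known from immune cells and from cells exposed to interferon. The regulatory particle unfolds substrates with a ring of ATPases (Psmc1 to Psmc6) in its base and removes ubiquitin with the lid subunit Psmd14. Core particles can also be capped by activators that do not use ubiquitin, namely the heteromeric ring of Psme1 and Psme2 products (PA28 alpha and beta), the nuclear homomer made by Psme3 (PA28 gamma), and the single large protein made by Psme4 (PA200), known in testis for the degradation of acetylated histones. Psma8 codes for a testis-specific alpha subunit that takes the place of the Psma7 product in the spermatoproteasome of meiotic and later germ cells.

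RefSeq promoter windows, from 250 bases before to 50 bases after an annotated start on GRCm38.p6, were matched for 34 of the 41 genes and gave 37 windows. Those of Psma7, Psma6 and Psme3 are shown, because these genes took different courses through the germ line. The Psma7 window is chr2:180042415-180042714 on the minus strand. The Psma6 windows, chr12:55383972-55384271 and chr12:55398575-55398874 on the plus strand, belong to separate annotated starts, which 3' end counts cannot tell apart. The Psme3 window is chr11:101315963-101316262 on the plus strand. Capitals mark the letters CCAAT, or ATTGG where they lie on the other strand.
Psma7: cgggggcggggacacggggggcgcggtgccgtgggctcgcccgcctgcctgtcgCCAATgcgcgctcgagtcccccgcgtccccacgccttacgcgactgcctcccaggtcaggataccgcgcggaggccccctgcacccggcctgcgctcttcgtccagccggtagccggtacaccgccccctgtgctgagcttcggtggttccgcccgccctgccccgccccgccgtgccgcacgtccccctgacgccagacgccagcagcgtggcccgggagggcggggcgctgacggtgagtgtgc
Psma6 upstream start: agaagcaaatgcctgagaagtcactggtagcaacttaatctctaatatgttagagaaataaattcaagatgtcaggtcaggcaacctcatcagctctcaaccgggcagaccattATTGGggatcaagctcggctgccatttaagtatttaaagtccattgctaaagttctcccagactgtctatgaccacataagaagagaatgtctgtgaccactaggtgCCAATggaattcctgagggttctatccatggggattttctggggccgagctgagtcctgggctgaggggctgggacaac
Psma6 downstream start: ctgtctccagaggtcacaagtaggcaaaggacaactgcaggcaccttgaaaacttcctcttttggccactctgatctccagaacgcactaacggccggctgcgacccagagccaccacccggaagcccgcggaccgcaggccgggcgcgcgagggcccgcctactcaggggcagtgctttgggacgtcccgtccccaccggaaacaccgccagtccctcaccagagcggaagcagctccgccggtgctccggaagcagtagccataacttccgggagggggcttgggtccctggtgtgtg
Psme3: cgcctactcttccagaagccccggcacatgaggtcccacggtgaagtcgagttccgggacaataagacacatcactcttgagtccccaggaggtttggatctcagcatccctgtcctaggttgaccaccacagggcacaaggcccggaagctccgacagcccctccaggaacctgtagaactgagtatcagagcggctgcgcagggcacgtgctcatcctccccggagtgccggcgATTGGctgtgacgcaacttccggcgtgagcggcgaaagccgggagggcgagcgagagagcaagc
The letters CCAAT, counted on both strands, occurred in 12 of the 37 windows (32.4%), against 37.4% of all 32851 RefSeq windows of the same length. The antioxidant response element, searched as TGACNNNGC on both strands, occurred in 6 windows (16.2%, against 12.4% of all), among them those of Psmb5, Psmb6 and Psme4. An interferon response motif, searched as GAAANNGAA on both strands, occurred in 6 windows (16.2%, against 8.56% of all), among them that of Psme1 but neither Psmb8 nor Psme2. Psmd9 alone had both of these. The motifs were searched separately, so matches of different motifs may overlap, and a match says only that the letters are present.

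After filtering, 29967 cells fell into 38 clusters, and 12 classes were named from marker genes. The germ cell classes were spermatogonia (708 cells), early spermatocytes of leptotene to zygotene type (814), late spermatocytes of pachytene to diplotene type (2555), round spermatids (5233) and elongating spermatids (9582). The somatic classes were Sertoli cells (1124), Leydig cells (341), macrophages (362), interstitial mesenchymal cells (353), peritubular myoid cells (44), endothelial cells (61) and lymphocytes (26). All names rest on markers alone and mean "like" these types. Another 8764 cells (29.2%) stayed unnamed, and clusters 0, 1 and 26, with median depths under 1000 UMI, held most of these. One unnamed group, cluster 18 (418 cells, median depth 29842 UMI), scored between early and late spermatocytes (0.481 and 0.364, where 0.5 was needed) and is given beside the classes where it bears on a result. Depth also varied within classes, and deep cells weigh more in summed UMI. Late spermatocyte clusters 23 and 30 (350 and 213 cells) had medians of 24006 and 53641 UMI, against 2675 in the class. Round spermatid clusters 20 and 25 (386 and 330 cells) had medians of 29426 and 28496 UMI, against 3173 in the class. The CPM of such a class need not be that of its typical cell. Droplets also hold free RNA. Prm2, a protamine gene of elongating spermatids, stood at 77391 CPM there but also at 2558 to 22106 CPM in the 7 somatic classes, so a low level of any germ cell gene in somatic cells is read against it.

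The summed level of the 41 genes decreased from one germ cell class to the next. It was 12584 CPM in spermatogonia (interval 12463 to 12707), 9516 in early spermatocytes, 7324 in late spermatocytes, 5555 in round spermatids and 4092 in elongating spermatids (4077 to 4106). The suffixes did not overlap between neighbouring classes: they ran from 12036 to 13136 CPM in spermatogonia and from 9382 to 9673 in early spermatocytes. Somatic classes lay between 5265 CPM (peritubular myoid) and 8757 CPM (lymphocyte). By single genes, 25 of the 41 had their highest germ cell level in spermatogonia, 8 in early spermatocytes, 5 in late spermatocytes, 1 in round spermatids (Psmc2) and 2 in elongating spermatids (Psma6 and Psme3). The same counts over all genes are not given, so they are not read as particular to the members. Within a germ cell class the highest suffix was 1.13 to 1.35 times the lowest in the median of the members, against 1.22 to 1.28 for all genes with enough UMI. The members' spread was below that of all genes except in elongating spermatids, where it was 1.35 against 1.27. In that class 8 of 34 members differed more than 1.5-fold between suffixes, Psma1 most (2.07).

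**Figure D1:**
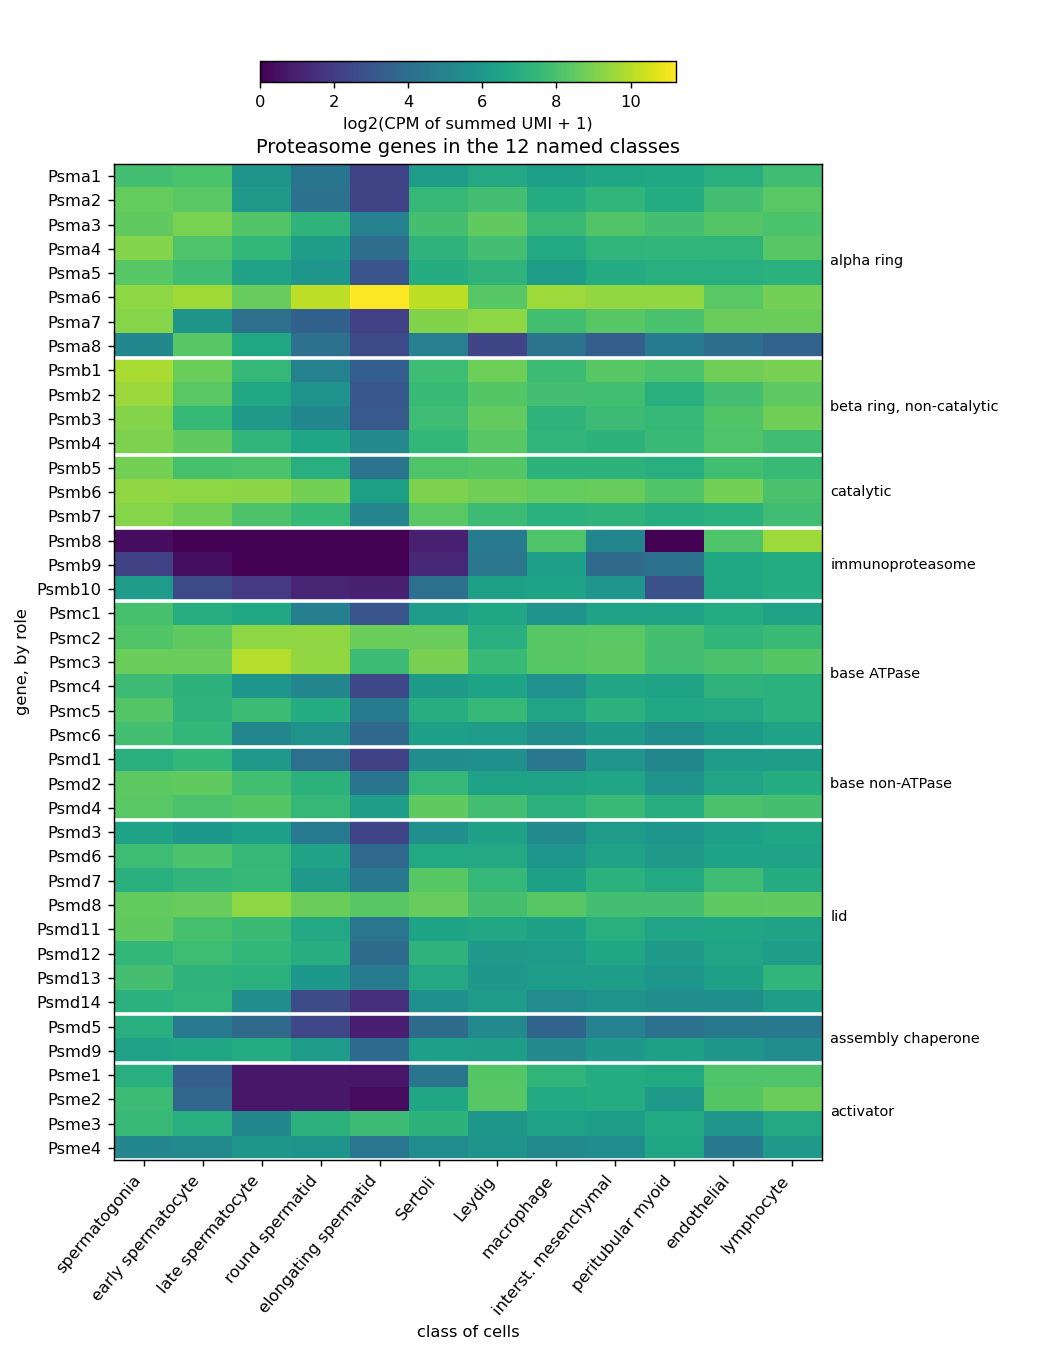
Level of each proteasome gene, as log2(CPM of summed UMI + 1), in the 12 named classes, with genes grouped by role and germ cell classes on the left. Most rows are darker in elongating spermatids than in spermatogonia, while Psma6 brightens to 2394 CPM in elongating spermatids and Psmb8 is near 0 in every germ cell class.

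Neighbouring germ cell classes were compared by the log2 ratio of their CPM. A gene was tested if it had at least 50 UMI over both classes, and called higher or lower if its pooled ratio reached 2-fold and each of the 4 suffixes had that direction. From spermatogonia to early spermatocytes 1 of 39 tested members was called higher (Psma8), where 11.6% of all tested genes were, and 9 were called lower, where 20.9% of all genes were. From early to late spermatocytes 1 of 38 was called higher (Psmc3, against 26.7% of all genes) and 16 lower (31.7% of all). From late spermatocytes to round spermatids 2 of 37 were called higher (Psma6 and Psme3, against 32.3% of all) and 14 lower (29.3% of all). From round to elongating spermatids 1 of 38 was called higher (Psma6, against 6.49% of all) and 32 lower (67.6% of all). The members' median log2 ratios in these steps were -0.44, -0.75, -0.82 and -2.18, beside -0.03, -0.10, -0.27 and -1.83 for all tested genes. In each step the median member thus lay below the median gene, and a smaller share of members than of all genes was called higher.

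In the last of these steps most genes of any kind had a lower CPM, while Prm2 alone went from 8445 to 77391 CPM. Relative to the median gene, whose ratio was -1.83, 6 members were called higher (Psma6, Psmb10, Psmc2, Psmd8, Psme1 and Psme3, against 28.7% of all genes) and 5 lower (Psma5, Psmb2, Psmc4, Psmd2 and Psmd12, against 24.5% of all). In the step to round spermatids, with a median gene at -0.27, the same 2 members were called higher relative to it (35.5% of all) and 10 lower (21.9% of all). In the step to late spermatocytes, with a median gene at -0.10, Psmc3 was the 1 called higher (28.7% of all) and 14 were called lower (30.1% of all). Psmb1 was called lower in all 4 steps, and Psma1, Psma2, Psma8, Psmd1 and Psmd14 were called lower in the last 3, before any adjustment to the median gene. The share of all genes with such a run of calls is not given, so these names are a list only.

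**Figure D2:**
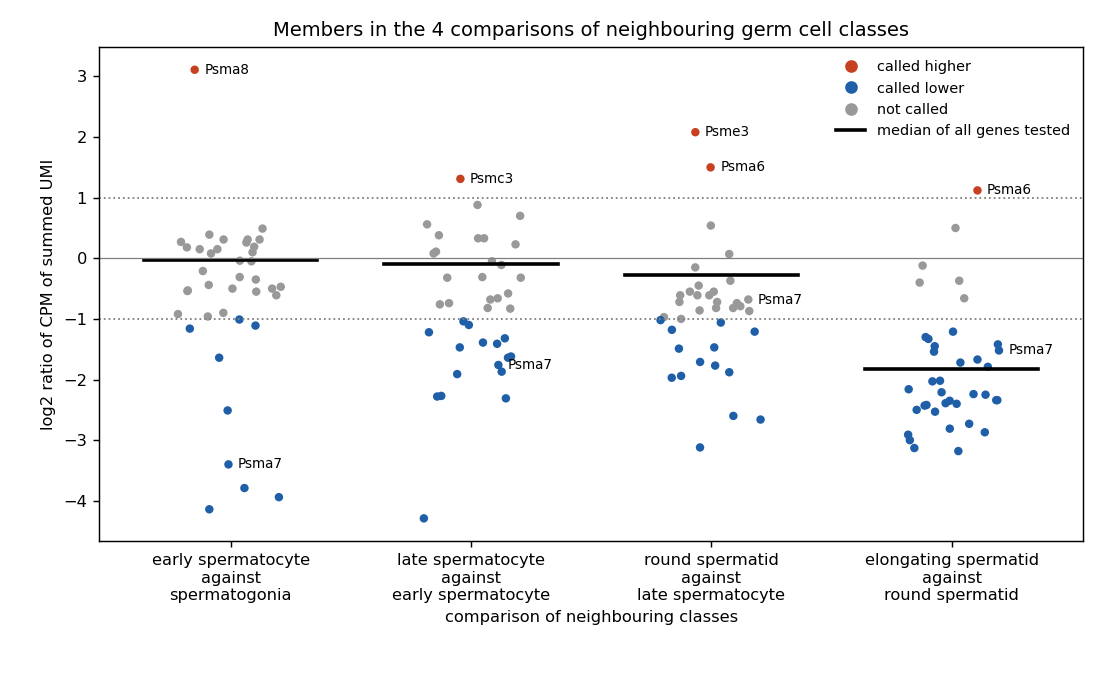
Log2 ratio of CPM between neighbouring germ cell classes for each tested member (points), with the median of all tested genes (black bar) and the 2-fold limits (dotted). Red points were called higher and blue points lower, and Psma8 (3.11), Psmc3 (1.31), Psme3 (2.08) and Psma6 (1.5 and 1.12) are the red points of the 4 steps from left to right.

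Psma7 and Psma8 changed places at the entry into meiosis. Psma7 (ENSMUSG00000027566, chromosome 2, 180036374 to 180042433) codes for the constitutive subunit. It stood at 590 CPM in spermatogonia (1925 UMI, interval 564 to 617), with 606, 606, 576 and 576 in the suffixes, and at 55.9 CPM in early spermatocytes (165 UMI, 47.7 to 65.1), with 56.5, 63.7, 36.7 and 73.0. The groups of suffixes were far apart, and the level was 10.6-fold lower (log2 ratio -3.40, interval -3.64 to -3.17). Psma7 was called lower again in late spermatocytes, at 16.6 CPM (-1.76). It stood at 10.3 CPM in round and 3.61 CPM in elongating spermatids. In somatic classes it was abundant, from 223 CPM in macrophages to 546 in Sertoli cells (508, 547, 623 and 512) and 639 in Leydig cells (598, 704, 625 and 652).

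Psma8 (ENSMUSG00000036743, chromosome 18, 14706151 to 14762301) went the other way. It stood at 37.1 CPM in spermatogonia (121 UMI, interval 30.8 to 44.3), with 40.5, 43.8, 31.2 and 33.9 in the suffixes, and at 321 CPM in early spermatocytes (948 UMI, 301 to 342), with 308, 358, 341 and 273. Every suffix of the later class was above every suffix of the earlier one, and the level was 8.65-fold higher (log2 ratio 3.11, 2.84 to 3.40). It was 105 CPM in late spermatocytes (85.6, 126, 93.3 and 110), which was 3.06-fold lower than in early ones. It was 16.6 CPM in round spermatids (12.8, 19.2, 17.9 and 16.8), 6.33-fold lower again, and 4.79 CPM in elongating spermatids. Next to the meiotic classes in the order of levels came spermatogonia at 37.1 CPM and Sertoli cells at 28.2 CPM, whose suffixes overlapped (15.2 to 43.3 in Sertoli cells), and Leydig cells were lowest at 4.13 CPM (2.06 to 7.39).

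Cluster 18 held the highest Psma8 level of all 38 clusters, 464 CPM from 6070 UMI, beside 59.3 CPM of Psma7. Psma8 was itself among the 10 leading genes of that cluster, so its level there is a description. Of the clusters called early spermatocyte, cluster 17 had 335 CPM and cluster 19 had 293 CPM. Among the late spermatocyte clusters Psma8 ranged from 46.9 CPM in cluster 23 to 151 CPM in cluster 30. With cluster 18 counted among the early spermatocytes, a setting chosen after seeing the data, Psma8 was still called higher there than in spermatogonia (log2 ratio 3.56) and lower in late spermatocytes (-2.06).

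**Figure D3:**
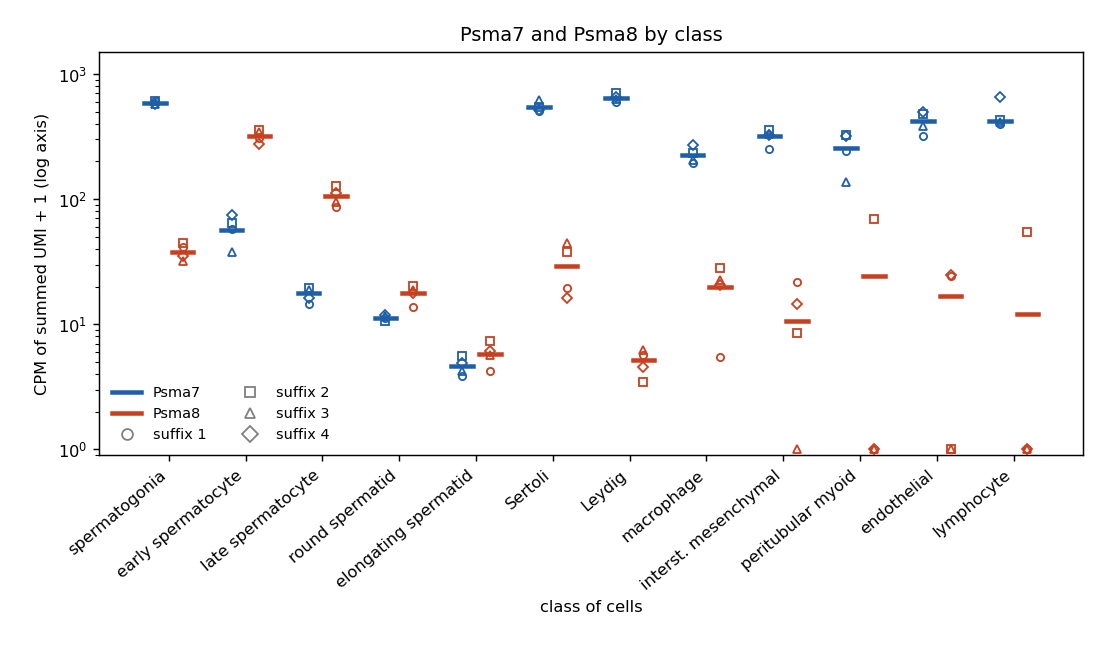
CPM of summed UMI plus 1 (log axis) of Psma7 (blue) and Psma8 (red) in the 12 named classes, as pooled level (bar) and in each barcode suffix (symbols). Psma7 lies above Psma8 in spermatogonia (590 against 37.1 CPM) and in every somatic class, and below it in early spermatocytes (55.9 against 321 CPM) and the 3 later germ cell classes.

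The share of Psma8 in the sum of Psma7 and Psma8 UMI sets the genes against each other over the summed UMI of a class. Each UMI stands for a captured 3' end, so the share does not depend on transcript length, but the capture of the transcripts may differ. It was 5.91% in spermatogonia (4.93 to 7.03%), 85.2% in early spermatocytes (82.9 to 87.2%) and 86.4% in late spermatocytes (85.2 to 87.5%). Both meiotic classes had a share above 78% in every suffix (84.5, 84.9, 90.3 and 78.9% in early, and 86.3, 87.1, 84.1 and 87.8% in late spermatocytes), and in spermatogonia no suffix exceeded 6.74%. Round spermatids had 61.5% (58.5 to 64.5%) and elongating spermatids 57.0% (53.1 to 60.9%), both from few UMI (637 and 369 of Psma8). Their Psma8 levels (16.6 and 4.79 CPM) lay within the range of the somatic classes (4.13 to 28.2 CPM). The part of free RNA in these spermatid shares was not tested. In Leydig cells the share was 0.642% (11 Psma8 and 1702 Psma7 UMI), in Sertoli cells 4.92%, and in macrophages 7.73%.

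Round spermatid clusters differed widely in this share. It was 87.0% in cluster 5 (294 Psma8 and 44 Psma7 UMI, 82.9 to 90.4%), 52.2% in cluster 25 and 32.8% in cluster 20 (57 and 117 UMI, 25.8 to 40.3%). Prm2 was at 3816, 1115 and 18090 CPM in these 3 clusters. Among elongating spermatid clusters with at least 50 UMI of both genes together, the share ran from 37.9% (cluster 13) to 78.7% (cluster 6). Cluster 1, unnamed for its median of 911.5 UMI and led by hemoglobin genes, had 77.7%. The share in spermatids is thus an average over clusters that lie on either side of an even split.

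**Figure D4:**
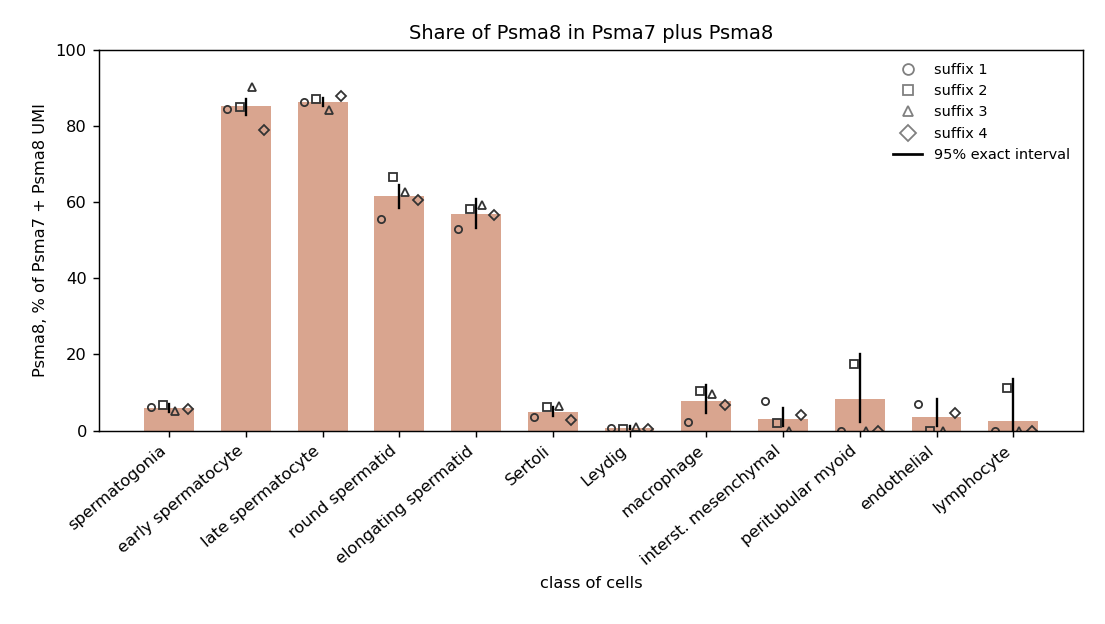
Psma8 as a percentage of Psma7 plus Psma8 UMI in the 12 named classes (bars), with the exact 95% interval (line) and the 4 suffixes (symbols). Early and late spermatocytes stand at 85.2 and 86.4%, spermatids at 61.5 and 57.0%, and all other classes at 8.33% or less.

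Most cells had a UMI of at most one of these genes. When each cell was thinned to 1000 UMI, so that classes of different depth could be compared, 21.9% of early spermatocytes had a Psma8 UMI (18.9 to 25.1%) and 5.90% a Psma7 UMI, and 1.29% had both. Spermatogonia had 4.27% and 37.8%, and late spermatocytes 10.1% and 2.08%. Sertoli cells had 2.93% with Psma8 (1.88 to 4.32%), which overlaps the spermatogonia (2.81 to 6.19%). None of 341 Leydig cells had a Psma8 UMI (up to 1.08%). The part of free RNA in the Psma8 UMI of Sertoli cells and spermatogonia was not tested. Without thinning, Psma8 UMI were seen in 39.2% of early spermatocytes, 36.7% of late spermatocytes, 15.4% of spermatogonia, 4.72% of Sertoli and 2.93% of Leydig cells, whose median depths were 2538, 2675, 4143, 1213 and 7650 UMI.

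Among the other alpha ring genes, Psma6 had a course of its own. Psma6 (ENSMUSG00000021024, chromosome 12, 55384222 to 55418454) stood at 647 CPM in spermatogonia and 800 CPM in early spermatocytes. It was 388 CPM in late spermatocytes (403, 357, 396 and 401 in the suffixes), 1100 CPM in round spermatids (1091, 1123, 1024 and 1147) and 2394 CPM in elongating spermatids (2262, 2342, 2455 and 2489). These 3 sets of suffixes did not overlap, and the last 2 steps were called higher, at log2 ratios of 1.5 and 1.12. In elongating spermatids its 184376 UMI made up most of the members' summed level of 4092 CPM. The earlier drop to late spermatocytes (-1.04) just passed the limit and was lost in 9 of 14 alternative settings, for example at -0.05 with cluster 18 among the early spermatocytes and at -0.97 without suffix 3. The 2 early spermatocyte clusters differed, with 1270 CPM of Psma6 beside 32165 CPM of Prm2 in cluster 19, and 571 beside 2804 CPM in cluster 17. With the mean of per-cell CPM, the step to round spermatids was 0.65 and not called. Within the round spermatid clusters Psma6 ran from 521 CPM (cluster 5) to 1450 CPM (cluster 20), and within the elongating clusters from 585 CPM (cluster 11) to 3080 CPM (cluster 4). In somatic cells Psma6 was at 318 to 1136 CPM, or 1.41 to 2.61 UMI per cell beside 13.3 to 56.2 UMI of Prm2, while elongating spermatids had 19.2 and 622. The part of free RNA in the Psma6 levels of somatic cells and of cluster 19 was not tested.

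The remaining alpha genes were lowest in elongating spermatids. Psma1 and Psma2 were called lower in the last 3 steps, Psma2 from 327 CPM in early spermatocytes to 65.9, 17.2 and 3.87. Psma3 was highest in early spermatocytes (504 CPM) and at 29.6 CPM in elongating spermatids. Psma4, at 556 CPM in spermatogonia, was at 276 CPM in early spermatocytes and at 15 CPM in elongating spermatids. Psma5 had the lowest ratio of all members between elongating and round spermatids (-3.18), at 6.52 against 59.3 CPM. In Psma5, 53.8% of the 50-base words in the last 400 bases of its transcript also occur in the counted gene Gm8394 or in another copy, so its count is uncertain.

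The structural beta genes Psmb1 to Psmb4 were among the most abundant in spermatogonia, with a summed level of 2699 CPM that was 1282 in early spermatocytes, 515 in late spermatocytes, 214 in round and 62.7 in elongating spermatids. Psmb1 stood at 892 CPM in spermatogonia (852, 920, 885 and 918), 413 in early spermatocytes (400, 403, 427 and 419), 177 in late spermatocytes, 29.1 in round spermatids (22.4, 31.9, 32.2 and 31.1) and 9.15 in elongating spermatids. No suffix of one class reached the range of the next. Psmb2 and Psmb3 were called lower in the first step as well (-1.16 and -1.64), and Psmb4, at 508 CPM in spermatogonia, was first called lower in late spermatocytes (-1.10). Of the 50-base words at the end of Psmb3, 64.1% are shared with other genes, Gm4950 among those counted.

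The catalytic genes Psmb5, Psmb6 and Psmb7 kept more of their level through meiosis. None of the 3 was called in the first 3 steps, and all 3 were called lower in elongating spermatids. Psmb5 lay just short of the limit in the step to round spermatids (-0.97) and was called lower there in 4 alternative settings, from -1.02 at resolution 2 to -1.90 at resolution 0.5, where Psmb7 was called too (-1.32). Psmb6, the caspase-like site, was at 649, 633, 612 and 474 CPM from spermatogonia to round spermatids and at 81.9 CPM in elongating spermatids (-2.53). Psmb5, the chymotrypsin-like site, was at 463, 248, 262, 134 and 19.1 CPM, and 65.0% of its end words occur in a pseudogene that was not counted. Psmb7, the trypsin-like site, was at 589, 461, 275, 181 and 33.8 CPM. The catalytic genes together went from 1701 CPM in spermatogonia to 1150 in late spermatocytes, where the structural beta genes had gone from 2699 to 515.

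The immunoproteasome genes Psmb8 and Psmb9 were at or near 0 in the germ cell classes past the spermatogonia. Psmb8 had 1 UMI in spermatogonia, 0 in early spermatocytes and 0 in late spermatocytes, where the interval allows up to 0.124 CPM. Psmb9 had 12 UMI in spermatogonia (3.68 CPM) and 0 in late spermatocytes and in round spermatids. In immune and vascular cells both were well above this. Psmb8 was at 772 CPM in lymphocytes (602 to 975), 284 in macrophages (254, 269, 249 and 382 in the suffixes) and 283 in endothelial cells, and at 24.4 CPM in Leydig cells. Of the UMI of Psmb5 and Psmb8 together, Psmb8 made up 80.5% in lymphocytes, 64.8% in macrophages, 55.6% in endothelial cells, 7.28% in Leydig cells and 0.348% in Sertoli cells. Psmb9 made up 32.4%, 17.4%, 18.2%, 4.57% and 0.286% of Psmb6 and Psmb9 in the same classes. In interstitial mesenchymal cells Psmb8 made up 18.2% (25 UMI, and 18.2, 15.4, 18.2 and 20% in the suffixes) and Psmb9 3.38% (10 UMI). In peritubular myoid cells Psmb8 made up 0% and Psmb9 5.77% (3 UMI). The lymphocyte class has only 26 cells, with 1 cell in suffix 4.

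Psmb10 alone of the immunoproteasome genes had a clear level in a germ cell class. It stood at 72.7 CPM in spermatogonia (237 UMI, with 66.3, 123, 53.6 and 57.7 in the suffixes) and at 4.74 CPM in early spermatocytes (7.06, 1.52, 6.66 and 2.92), a log2 ratio of -3.94. Suffix 2 stood apart in spermatogonia, and its span between suffixes, 2.29 times, was the largest of the members in that class. Among the spermatogonia clusters, cluster 34, with 58 cells and the highest spermatogonia score (3.07), had 261 CPM, against 42.5 and 36.8 in clusters 21 and 27. Unnamed cluster 18 had 13.2 CPM of Psmb10 (173 UMI, 11.3 to 15.4). The step to late spermatocytes (-0.83) was not called, but it was called lower in 7 of 14 alternative settings. With cluster 18 among the early spermatocytes it was -2.13. The next step, to round spermatids, was called lower (-1.06), and 6 of 14 settings took that call away. In spermatogonia the 8 macrophage markers summed to 29.4 CPM (4.50, 13.1, 2.49 and 91.6 in the suffixes) against 30944 in macrophages, the 8 Leydig markers to 22.7 against 15032 in Leydig cells, the 7 endothelial markers to 54 (36, 62.8, 64.8 and 55.4) against 3165 in endothelial cells, and the 8 lymphocyte markers to 14.1 against 5096 in lymphocytes. Of the macrophage markers 7 of 8 had a UMI, of the endothelial 6 of 7, of the Leydig 8 of 8 and of the lymphocyte markers 4 of 8. The 12 Sertoli markers summed to 93.2 CPM (87.7, 111, 79.8 and 97.3) against 13346 in Sertoli cells, and 11 of them had a UMI. The 12 elongating spermatid markers, by contrast, summed to 15507 CPM in spermatogonia (20229, 14170, 13401 and 13704). Psmb10 itself was at 91.5 CPM in macrophages, 83 in Leydig cells, 104 in endothelial cells, 16.5 in Sertoli cells and 0.987 in elongating spermatids. The part of RNA from these cell types in the Psmb10 level of spermatogonia was not tested.

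In the base of the regulatory particle, Psmc2 and Psmc3 separated from the other ATPase genes. Psmc3 (chromosome 2, 91054009 to 91066369) stood at 414 CPM in spermatogonia, 401 in early spermatocytes (379, 449, 357 and 435), 993 in late spermatocytes (995, 993, 974 and 1013), 680 in round spermatids and 207 in elongating spermatids. The step to late spermatocytes was called higher (log2 ratio 1.31, 1.22 to 1.39) and no suffixes overlapped, but the call was lost in 6 of 14 alternative settings, with ratios of 0.54 to 0.88. Cluster 18 counted as early spermatocytes gave 0.58. In cluster 18 Psmc3 was at 721 CPM. Psmc2 was at 287, 343, 630, 662 and 418 CPM in the 5 classes and was not called in any step, although in the first step it was called higher with the top doublet scores removed (1.06) and with at least 1000 genes per cell (1.05). Psmc1, Psmc4 and Psmc6 were at 247, 208 and 236 CPM in spermatogonia and at 6.76, 4.41 and 12.7 CPM in elongating spermatids, and Psmc5 was at 298 and 23.7 CPM. The exons of Psmc3 overlap those of Slc39a13 on the other strand, and whether strand was used in counting is not stated.

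Of the base genes without ATPase activity, Psmd4, a ubiquitin receptor, was at 324, 262, 307, 178 and 77.0 CPM. The scaffold genes Psmd1 and Psmd2 were at 172 and 357 CPM in early spermatocytes and at 3.51 and 19.7 CPM in elongating spermatids. For Psmd1, 72.9% of end words lie in the overlapping gene Gm21972, and for Psmd2, 29.1% in Gm5422, so the counts of both are uncertain.

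Among the 8 lid genes, Psmd8 and Psmd14 marked the extremes. Psmd14, the deubiquitinase, was at 144 CPM in spermatogonia, 160 in early spermatocytes, 43.8 in late spermatocytes, 5.02 in round spermatids and 1.83 in elongating spermatids. Its drop to round spermatids (log2 ratio -3.12, with -3.16, -3.13, -3.03 and -3.11 in the suffixes) was the largest of all members in that step. Psmd8 was at 365, 391, 635, 416 and 316 CPM and was not called in any step, although at resolution 0.5 it was called lower in round spermatids (-1.02) and relative to the median gene higher in elongating spermatids (1.43). The summed level of the lid genes was 1721, 1664 and 1630 CPM up to late spermatocytes, and 895 and 417 CPM in round and elongating spermatids. In the step to round spermatids 5 of the 8 lid genes were called lower (Psmd3, Psmd6, Psmd7, Psmd13 and Psmd14), where 29.3% of all tested genes were, and relative to the median gene Psmd3, Psmd7 and Psmd14 were. Psmd11 and Psmd12, at 357 and 174 CPM in spermatogonia, were called lower in the last step alone, to 20.3 and 14.5 CPM. Psmd7 was highest of all classes in Sertoli cells, at 317 CPM.

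The assembly chaperone genes differed from each other. Psmd5 was at 133 CPM in spermatogonia and 23.4 CPM in early spermatocytes, 5.68-fold lower, and at 13.8, 4.21 and 0.909 CPM afterwards. Psmd9 was at 86.8, 96.2, 121, 72.0 and 14.2 CPM and was called lower in the last step alone.

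The activators were exchanged along the germ line. Psme1 and Psme2 stood at 131 CPM (136, 145, 135 and 113) and 209 CPM (152, 258, 236 and 205) in spermatogonia, at 9.48 CPM (9.89, 12.1, 10 and 5.84) and 11.9 CPM (12.7, 10.6, 12.2 and 11.7) in early spermatocytes, and at 0.641 and 0.607 CPM in late spermatocytes. The first step was 13.8-fold and 17.6-fold down, and every suffix of spermatogonia was above every suffix of early spermatocytes. In late spermatocytes the counts were 19 and 18 UMI of 29659016, and in spermatids they stayed at 0.65 CPM or less. Somatic classes had far more: Leydig cells 309 and 318 CPM, endothelial cells 283 and 308, lymphocytes 276 and 419. Sertoli cells had 19.5 CPM of Psme1 and 98.2 CPM of Psme2. The late spermatocyte call of Psme2 (-4.29) rests on 53 UMI and falls below the minimum of 50 when any suffix is left out. Of the end words of Psme2, 68.9% are shared with Psme2b, and of Psme1, 17.4% with pseudogenes that were not counted.

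Psme3 (chromosome 11, 101316213 to 101323537) reached its lowest level in late spermatocytes and was higher on either side. It stood at 189 CPM in spermatogonia, 129 in early spermatocytes (144, 127, 117 and 131), 34.4 in late spermatocytes (36.8, 32.0, 35.0 and 34.6), 146 in round spermatids (152, 134, 126 and 167) and 206 in elongating spermatids (213, 215, 204 and 197). The suffixes of late spermatocytes were all below those of both neighbours. The drop into late spermatocytes had a log2 ratio of -1.91, and 4 of 14 alternative settings took the call away (-0.47 to -0.74), among them cluster 18, with 39.5 CPM of Psme3, counted as early spermatocytes (-0.70). The step before it, from spermatogonia to early spermatocytes, was -0.55 and not called, but in 6 of the 14 settings it was called lower, at -1.33 to -1.91 (-1.76 with cluster 18 among the early spermatocytes). At which of these steps Psme3 drops therefore depends on how the cells are grouped. The step to round spermatids, 4.24-fold higher (2.08, interval 1.99 to 2.18), was called in all 14. Within spermatids Psme3 differed widely between clusters. Round clusters 25 and 5 had 34.0 and 52.5 CPM, round clusters 20 and 16 had 302 and 375 CPM, elongating clusters 13 and 2 had 448 and 354 CPM, and elongating clusters 4 and 6, the richest in Prm2 (108504 and 128977 CPM), had 37.1 and 25.5 CPM.

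Psme4 (chromosome 11, 30771726 to 30880361) varied least of the 4. It was at 35.9 CPM in spermatogonia (39.3, 35.0, 38.6 and 30.5), 41 in early spermatocytes (46.6, 39.4, 37.8 and 40.9), 60.6 in late spermatocytes (62.2, 56.0, 61.9 and 63.1), 54.7 in round spermatids (51.2, 56.1, 58.5 and 53.9) and 20.4 in elongating spermatids (21.6, 19.8, 20.6 and 19.4). The suffixes of spermatogonia and early spermatocytes overlapped, those of late spermatocytes overlapped with those of round spermatids, and elongating spermatids lay below all others. Only the last step was called (log2 ratio -1.42, interval -1.52 to -1.33). At resolution 0.5 it was -0.99 and not called, and relative to the median gene it had the opposite sign (0.41). The highest round spermatid clusters were cluster 5 (89.4 CPM) and cluster 12 (78.7 CPM). In Leydig cells Psme4 was at 54.8 CPM (146 UMI, interval 46.3 to 64.5, with 56, 64, 57.6 and 47 in the suffixes), or 0.428 UMI per cell beside 0.164 in elongating spermatids. Sertoli cells had 43.3 CPM from 89 UMI, and the other somatic classes rest on 6 to 39 UMI each. The 12 elongating spermatid markers summed to 9181 CPM in Leydig and 59340 CPM in Sertoli cells, and the part of free RNA in these Psme4 levels was not tested.

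Within the UMI of the 4 activators, the leading gene thus changed from class to class. Psme1 and Psme2 made up 23.2% and 37.0% in spermatogonia, with Psme3 at 33.5% and Psme4 at 6.34%. Psme3 led in early spermatocytes (67.4%), Psme4 in late spermatocytes (63.0%, interval 61.2 to 64.7%, and 62.3, 62.4, 62.7 and 64.3% in the suffixes), and Psme3 in round (72.3%) and elongating spermatids (90.7%). Unnamed cluster 18, which scored between early and late spermatocytes, had more Psme4 than Psme3 (590 against 516 UMI). The lead of Psme3 in round spermatids did not hold in each of the 6 clusters of that class. Psme4 had more UMI than Psme3 in cluster 5 (601 against 353), cluster 12 (313 against 274) and cluster 25 (617 against 402), and cluster 20 alone, with 386 cells, held 3256 of the 5613 Psme3 UMI. In late spermatocytes Psme4 led in clusters 14, 23 and 30 (221 against 173, 684 against 354 and 756 against 312 UMI). Cluster 8, with 1372 of the 2555 late spermatocytes, had more Psme3 (182 against 137 UMI). As a whole class, only late spermatocytes of the 12 had Psme4 in the lead. In Leydig cells Psme1 and Psme2 made up 41.6% and 42.9%, and in Sertoli cells Psme3 led with 48.3%, ahead of Psme2 at 31.6%. Sertoli cells also held 22106 CPM of Prm2, and the part of free RNA in their Psme3 UMI was not tested.

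**Figure D5:**
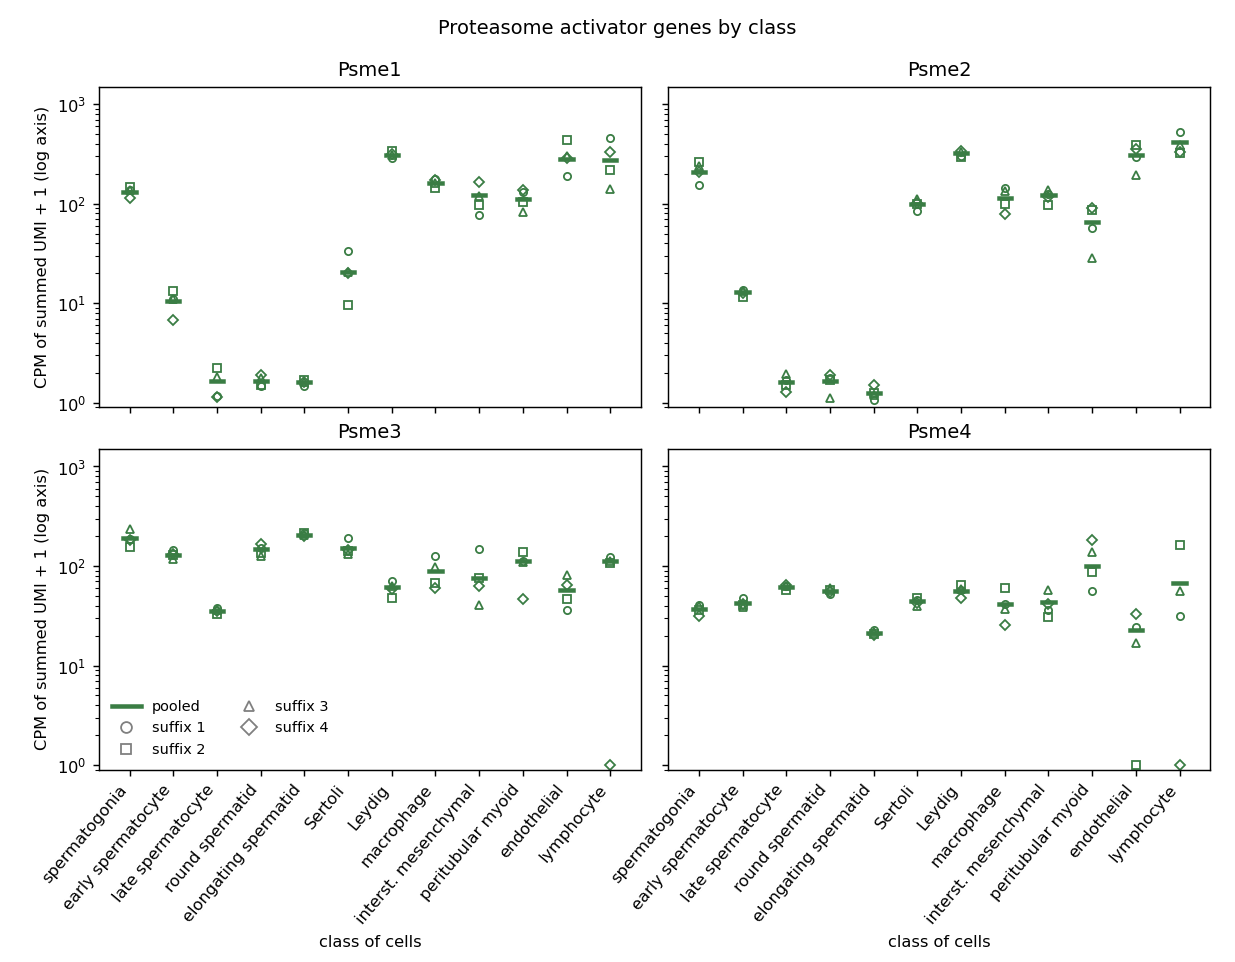
CPM of summed UMI plus 1 (log axis) of Psme1, Psme2, Psme3 and Psme4 in the 12 named classes, as pooled level (bar) and in each barcode suffix (symbols). Psme1 and Psme2 sit near 1 on this axis from late spermatocytes on (0.641 and 0.607 CPM there), Psme3 dips to 34.4 CPM in late spermatocytes, and Psme4 stays between 20.4 and 60.6 CPM in the germ cell classes.

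Across the 38 clusters, the log2(CPM + 1) levels of core particle genes without Psma8 had a median Pearson correlation of 0.90 over 91 pairs of 14 genes. For the 17 base and lid genes the median was 0.80, and over all 820 pairs of the 41 genes 0.72. These are descriptions over clusters that share libraries and differ in depth. The median over pairs of all genes is not given, so the values are not read as particular to the members. The 14 core genes include Psma6, which had correlations of -0.53 with Psma8 and -0.50 with Psme4. Of all genes with at least 200 UMI, those most like Psma8 were Zbtb32 (0.95), Pcgf6 (0.94), Stk31 (0.93), Taf1b (0.92) and Gm14167 (0.92), and those most like Psme4 were Pigc (0.77), Usp20 (0.75) and Ttc21b (0.75). Among the members, Psmd6 (0.81) was most like Psma8, and Psmd9 (0.65) most like Psme4.

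Of a list of further genes of the ubiquitin and proteasome pathway, 28 were found under their symbols (Paaf1 was not, and Sem1 was found as Shfm1). In the 4 steps 1, 0, 5 and 2 of them were called higher and 3, 14, 9 and 17 lower, of 26, 26, 26 and 25 tested. The shares of all tested genes were 11.6, 26.7, 32.3 and 6.49% higher and 20.9, 31.7, 29.3 and 67.6% lower. Psmf1, whose product PI31 binds the core particle, was at 183, 265, 156, 482 and 1537 CPM in the 5 germ cell classes, and was called higher in both spermatid steps, as Psma6 was. Pomp, the maturation factor of the core particle, was at 377, 267, 145, 14.7 and 9.30 CPM, with a log2 ratio of -3.30 from late spermatocytes to round spermatids. Uba1, the main ubiquitin-activating enzyme, was at 110, 14.2, 4.11, 39.4 and 11.8 CPM, so it was lowest in late spermatocytes, as Psme3 was. Nfe2l1, a transcription factor known to induce proteasome genes, was at 35.9, 17.3, 8.09, 2.34 and 1.66 CPM, and Vcp, the unfoldase that acts ahead of the proteasome, at 393, 504, 141, 64.1 and 8.30 CPM.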

How the data were processed

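Single-cell RNA of testicular cells (2 samples labelled Phf7 f/f and 2 Phf7 tKO) was deposited by the authors as 1 matrix of UMI counts, in whole numbers, per the file headers. Cell Ranger 3.0.2, bcl2fastq 2.19.1.403 and the build mm10 come from the submitters' processing notes. The use of strand in counting is not stated. No label ties barcode suffixes to samples, so the planned genotype test was not run and all cells were treated as 1 pooled sample. Cells with fewer than 500 genes or over 10% mitochondrial UMI were removed (29968 of 32273 barcodes passed). Scrublet (expected rate 6%) marked 1 cell, so it has not worked here and doublets are assumed to remain. Suffixes 1 to 4 had medians of 2244, 2488, 2974 and 2796 UMI per kept cell. UMI intervals and limits cover counting error only, since amplification and barcode errors are not independent draws.

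Clusters came from scanpy 1.11.5 and leidenalg 0.10.2 (2000 variable genes, 30 principal components, 15 neighbours, resolution 1). A cluster took the name of the type whose markers had the top mean z-score in it (at least 0.5, with a lead of 0.1, 3 detected markers and a median of 1000 UMI). This scoring rule was set after the clusters were seen, and differences from the study may come from rebuilt names. Members and lists were chosen with earlier results of these data known. UMI were summed per class, and CPM, ratios with exact conditional intervals, shares with Clopper-Pearson intervals and Poisson intervals were computed from them with scipy 1.17.1. In ratios, a class without UMI was given a floor of 3 counts. A call needed 2-fold, 50 UMI over both classes and 1 direction in every suffix with at least 20 cells in both classes. The ratio step was tested on simulated data. All 41 members are accounted for, with full values for Psma7, Psma8, the catalytic pairs, the activators and at most the 6 highest and 6 lowest called ratios per comparison, and others were named after their values were seen. Gene IDs were matched to GENCODE M21 for 28339 of 28692 genes. Alternatives varied clustering, doublet treatment, cell filters, weighting, scaling, the fold and UMI minimum, and left out each suffix.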

Additional observations from a re-analysis of the deposited data

How the results depend on the processing

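Psma8 was called higher in early spermatocytes, and Psma7 lower, under all 14 alternatives run for these ratios. The number of members called higher in early spermatocytes was 2 with the top doublet scores removed and with at least 1000 genes per cell. The number called higher in late spermatocytes was 0 at resolutions 0.5 and 2, with the top doublet scores removed, with no cells removed as doublets, with at least 1000 genes and, in a setting chosen after seeing the data, with clusters named from a score of 0.4, and it was 3 at 1.5-fold. Keeping the 1 marked cell changed the clustering, so these calls depend on how cells were grouped. In round spermatids 29 members were called lower at resolution 0.5 and 28 at 1.5-fold, and 1 was called higher by the mean of per-cell CPM. No share of all genes is given for these settings. Their counts therefore describe the dependence on the setting and not a trait of the members. Relative to the median gene, elongating spermatids had 6 members called higher and 5 lower, and the sign turned for 10 members called lower, namely Psma7 (0.31), Psma8 (0.04), Psmb1 (0.16), Psmb4 (0.53), Psmc3 (0.11), Psmd4 (0.62), Psmd7 (0.29), Psmd13 (0.50), Psmd14 (0.38) and Psme4 (0.41). The Psma8 share by per-cell means was 7.08% in spermatogonia, 80.9% in early and 84.8% in late spermatocytes, and 72.1% and 62.8% in round and elongating spermatids. In early spermatocytes it was 88.3% at resolution 0.5, 89.8% at resolution 2, 88.3% with the top doublet scores removed, 88.2% with no cells removed as doublets, 88% with at least 1000 genes and 88.2% from a score of 0.4. In late spermatocytes it was 87.7% at resolution 0.5, 88.2% with the top doublet scores removed, 88.2% at a mitochondrial limit of 20% and 87.9% with at least 1000 genes. In round spermatids it was 46.8% at resolution 0.5, 68.1% with the top doublet scores removed and 58.2% with at least 1000 genes. Leaving out each suffix gave 8 to 11, 14 to 16, 12 to 15 and 32 to 32 members called lower in the 4 steps, and shares of 5.68 to 6.16%, 82.9 to 86.9%, 85.9 to 87.2%, 59.6 to 63.4% and 56.3 to 57.9% in the 5 classes. Unless stated, the cause of a change was not tested. The low UMI of Psma7 and Psma8 in spermatids limits the precision there. No paired analysis was possible because no barcode suffix is tied to a sample.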
